A study of Mus musculus with 14 samples.

Results

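The transporters and enzymes that bring glucose into a cell, split it into pyruvate and lactate and feed the pentose phosphate pathway were followed in blood drawn from mouse embryos at E12.5. They form a list of 33 genes, set out by pathway step. Of these, 30 had a probe set that carried their symbol alone, among 18194 genes with such a probe set on the Affymetrix mouse array. Gpi1, Eno1 and G6pdx were not analysed here. Where a gene had several probe sets, the one with the highest mean over all 14 arrays was used.

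The first cross, of chimeras that carry the Cbfb-MYH11 fusion with C57/Bl6 females, gave Cbfb+/MYH11 embryos and WT littermates, with 4 arrays for each genotype. The second, between Cbfb+/- parents, gave Cbfb-/- embryos and Cbfb+/+ littermates, with 3 arrays for each. Cbfb is the partner that lets Runx transcription factors bind DNA firmly. The Cbfb-MYH11 fusion joins it to a smooth muscle myosin tail and is the lesion of an acute myeloid leukaemia in humans. Cbfb+/MYH11 embryos keep 1 normal allele and Cbfb-/- embryos have none, so each mutant was compared with its own littermates. RNA came from blood pooled over 8 to 10 embryos of a genotype, and by the labels a group's arrays are technical replicates. The spread between arrays that the p-values rest on may thus be technical alone.

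Glucose enters through the facilitative transporters of the Slc2a family and is trapped by hexokinase. The preparatory steps of glycolysis spend ATP and end in a pair of triose phosphates, and phosphofructokinase is the main regulated step among them. The payoff steps then make ATP, NADH and pyruvate, which lactate dehydrogenase turns into lactate or pyruvate dehydrogenase passes to the mitochondria. The pentose phosphate pathway branches off at glucose 6-phosphate, yields NADPH against oxidative damage and makes ribose 5-phosphate for nucleotides. Mature red cells have no mitochondria and live on glycolysis, with a side route, run by Bpgm, to the 2,3-bisphosphoglycerate that lowers the oxygen affinity of haemoglobin.

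Levels are given as log2 RMA values, and a difference of 1 on this scale is a doubling. A member was called when its adjusted p in limma was under 0.05 and its change was at least 1.5-fold. The adjustment ran over all 7393 genes that reached a log2 value of 6 on at least 3 arrays. Of the 30 members, 29 passed this filter. The other one, Eno2, the neuronal enolase, read 2.77 to 3.36 on every array. Slc16a3, Pfkp and Aldoc reached 6 on mutant arrays only, so they could enter the test only by being high there, and counts are also given without them.

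Array medians lay between 4.27 and 4.46. The probe set of Cbfb itself read 6.91 to 8.56 in Cbfb+/MYH11, 6.57 to 8.31 in WT, 6.80 to 7.03 in Cbfb-/- and 6.27 to 6.56 in Cbfb+/+, and as its position relative to the altered part was not determined, it is no check of the labels. The arrays of the first cross fell into pairs, 1 with 2 and 3 with 4. Across the members with a probe set, the SD of the log2 differences was 0.10 to 0.20 within a pair and 0.41 to 0.61 between pairs of a genotype. In the second cross it was 0.10 to 0.23. Changes within each pair of the first cross are therefore given beside the pooled ones for some members. The plot of the change in arrays 1 and 2 against that in arrays 3 and 4 shows them for every tested member. Averaging the arrays into putative pools, 2 per genotype in the first cross and 1 in the second, left 1 called member, Pfkp in Cbfb+/MYH11, beside 0.23% of all genes called higher there and 0.0135% lower.

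The start regions of 4 members are shown because these genes stand for the patterns described here: an uptake gene and a phosphofructokinase that rose with the fusion, and a payoff enzyme and a lactate enzyme that rose in both mutants. Each is the RefSeq window of GRCm38.p6 that runs 250 bases before to 50 after the gene start, read 5′ to 3′ on the strand of the gene. Capitals mark every match, on either strand, to the E-box CACGTG, to the core of the hypoxia response element, which is ACGTG, to the Runx motif TGTGGT or to the GATA motif, which is AGATAA. The core ACGTG lies within CACGTG, and each such E-box counts for both. Ldha has 2 such windows, of which 1 is shown.
Slc2a1, chr4:119108495-119108794, + strand: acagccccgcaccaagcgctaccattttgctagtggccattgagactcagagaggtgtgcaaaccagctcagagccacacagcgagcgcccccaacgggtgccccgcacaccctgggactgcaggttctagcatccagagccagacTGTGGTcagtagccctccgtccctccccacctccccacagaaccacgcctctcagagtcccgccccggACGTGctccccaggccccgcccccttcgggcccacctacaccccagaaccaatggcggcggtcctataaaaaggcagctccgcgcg
Pfkp, chr13:6648722-6649021, - strand: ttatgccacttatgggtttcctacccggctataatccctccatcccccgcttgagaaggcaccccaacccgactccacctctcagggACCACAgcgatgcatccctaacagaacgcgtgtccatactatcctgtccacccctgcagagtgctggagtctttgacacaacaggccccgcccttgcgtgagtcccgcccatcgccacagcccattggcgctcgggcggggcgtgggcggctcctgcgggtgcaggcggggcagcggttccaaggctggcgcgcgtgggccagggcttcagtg
Ldha, chr7:46845554-46845853, + strand: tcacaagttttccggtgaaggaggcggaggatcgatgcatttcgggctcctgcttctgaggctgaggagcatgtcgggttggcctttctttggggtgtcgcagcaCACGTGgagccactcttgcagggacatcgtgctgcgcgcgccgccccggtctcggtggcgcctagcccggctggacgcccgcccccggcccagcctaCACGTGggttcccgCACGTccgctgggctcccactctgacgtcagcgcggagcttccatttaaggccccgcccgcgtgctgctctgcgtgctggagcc
Pgk1, chrX:106186850-106187149, + strand: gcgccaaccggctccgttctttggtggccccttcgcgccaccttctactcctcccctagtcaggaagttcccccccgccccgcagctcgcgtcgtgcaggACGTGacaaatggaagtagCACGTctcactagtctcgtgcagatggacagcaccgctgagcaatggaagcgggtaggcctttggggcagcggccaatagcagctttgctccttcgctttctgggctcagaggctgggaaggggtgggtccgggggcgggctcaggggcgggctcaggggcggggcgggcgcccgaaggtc
The Slc2a1 window held 1 ACGTG and 1 TGTGGT, and the Pfkp window held 1 TGTGGT, read on the other strand, and no ACGTG. The Ldha window held 5 matches to ACGTG on both strands together, which include both strands of its 2 E-boxes. The Pgk1 window held 2 matches to ACGTG. Windows were found for 29 members, 40 in all, and those of 1 gene can overlap. ACGTG was present in 17 of the 40, or 42.5%, against 19.6% of all 32851 windows. It lay in 15 members, among them Slc16a3, Hk1, Hk2, Pfkm, Aldoa, Aldoc, Gapdh, Pgam1, Pkm, Pdk3 and Pdhb. CACGTG was in 7.5% of the member windows and 7.15% of all, TGTGGT in 17.5% and 16.8%, and AGATAA in 7.5% and 11.2%. These matches describe letters in a window and are not binding sites.

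Cbfb+/MYH11 blood read higher than WT blood at most steps, while Hk1, Bpgm and Pgd fell and Taldo1, Ldhb, Slc16a1 and Gapdh read lower without a call. Of the 29 tested members 18 were called higher, against a background of 30.5% of all tested genes, and 3 were called lower, against 5.63%. Without the 3 members that reached 6 on mutant arrays only, 15 of 26 were called higher and 3 lower. The median log2 change over the 29 was 0.85, beside 0.26 over all tested genes. Quantile normalization of the arrays moved the all-gene median to -0.04 and centring each array on its median moved it to 0.38. The 18 members called higher lay between 0.47 and 3.61 above the all-gene median. After quantile normalization 13 members were called higher and 4 lower, against 17.3% and 14.3% of all genes, with Hk2, Pfkl, Pfkm, Pdhb and Pgls no longer called and Ldhb called lower. That step moved the share of higher calls from 85.7% to 76.5% among the called members and from 84.4% to 54.7% among all called genes. After centring the arrays 19 members were called higher and 1 lower, against 36.8% and 3.56%. Within arrays 1 and 2 and again within arrays 3 and 4, 16 members were called higher and 2 lower, where 20.8% and 3.58% of all genes were, and without those 3 members the counts were 13 and 2 of 26.

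In Cbfb-/- blood 12 of the 29 members were called higher than in its littermates, against 19.5% of all tested genes. Only 1, Slc2a1, was called lower, against 6.65%. Of the 12 rises 8 lay between phosphofructokinase and lactate dehydrogenase, where Pfkm, Pfkp, Aldoa, Gapdh and Bpgm were not called. Without Slc16a3, Pfkp and Aldoc the counts were 10 and 1 of 26. The median log2 change was 0.54, beside 0.13 over all genes. After quantile normalization 9 were called higher and 3 lower, against 13.3% and 12.3% of all genes, with Hk1 and Rpia joining Slc2a1 among the lower ones and Hk2, Ldhb and Pdha1 no longer called. That moved the share of higher calls among the called members from 92.3% to 75.0%, and among all genes from 74.6% to 52.0%.

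**Figure D1:**
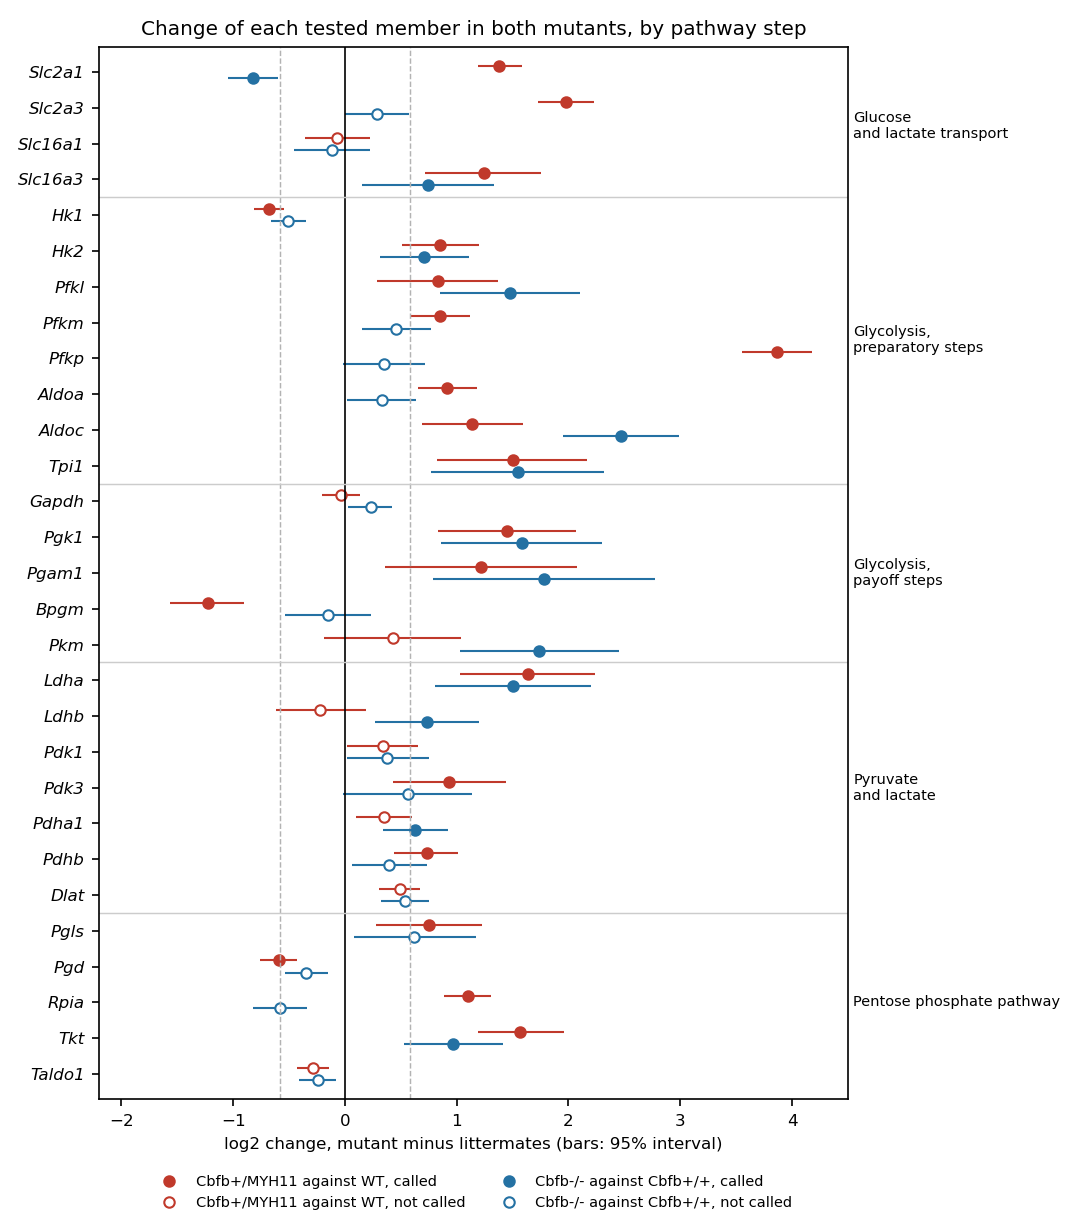
Log2 change of each tested member, mutant minus littermates, with 95% intervals from limma, in Cbfb+/MYH11 (red) above Cbfb-/- (blue). Filled points were called, open points were not, dashed lines mark 1.5-fold, and the genes run down the page by pathway step. Pfkp stands apart at 3.87 in Cbfb+/MYH11, and Slc2a1 is the one member called in opposite directions, at 1.38 and -0.82.

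RNA levels of the glucose transporter genes separated the mutants. Slc2a1 encodes GLUT1, a widely expressed glucose transporter that is abundant on human red cells. Its log2 values were 11.62, 11.55, 11.88 and 11.82 on the Cbfb+/MYH11 arrays, against 10.29, 10.47, 10.30 and 10.27 on the WT arrays. They were 9.43, 9.23 and 9.26 in Cbfb-/-, against 10.17, 10.12 and 10.11 in Cbfb+/+. All 4 Cbfb+/MYH11 arrays lay above every other array, and all 3 Cbfb-/- arrays lay below every other array. Slc2a1 rose 2.61-fold in Cbfb+/MYH11 (log2 change 1.38, 95% interval 1.19 to 1.58, adjusted p = 1.44e-07) and fell 1.77-fold in Cbfb-/- (-0.82, 95% interval -1.05 to -0.60, adjusted p = 0.000211). The difference of these effects was 2.21, 95% interval 1.91 to 2.51, adjusted p = 3.79e-07. Its 3 probe sets gave changes of 1.32 to 1.61 with the fusion and -0.85 to -0.74 with loss of Cbfb, all of them called.

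Slc2a3 encodes GLUT3, a transporter with a high affinity for glucose. It read 10.54, 10.58, 11.01 and 11.02 in Cbfb+/MYH11, against 8.86, 8.91, 8.73 and 8.75 in WT. The values were 8.80, 8.69 and 8.66 in Cbfb-/-, against 8.53, 8.40 and 8.36 in Cbfb+/+. The Cbfb+/MYH11 arrays lay above all others, and the Cbfb-/- range overlapped that of WT. The gene rose 3.94-fold with the fusion (log2 change 1.98, 95% interval 1.73 to 2.23, adjusted p = 5.24e-08). In Cbfb-/- the change was 0.29 (adjusted p = 0.0964) and was not called, and the effects differed by 1.69 (adjusted p = 1.91e-05). The probe set used carries the suffix _s_at, by which the maker marks probes that can also bind other transcripts. All 4 probe sets of the gene were called higher with the fusion, at 1.59 to 1.99.

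Lactate leaves the cell through the monocarboxylate transporters MCT4, from Slc16a3, and MCT1, from Slc16a1. Slc16a3 was dim, at 5.36, 5.42, 6.25 and 6.26 in Cbfb+/MYH11, against 4.59, 4.81, 4.39 and 4.56 in WT. It read 6.99, 6.05 and 6.34 in Cbfb-/-, against 5.83, 5.80 and 5.53 in Cbfb+/+. It rose in both mutants, by 1.24 (adjusted p = 0.000696) and 0.74 (adjusted p = 0.0434) on the log2 scale, without overlap between a mutant and its littermates. The second of these calls was lost on leaving out Cbfb-/- array 1 or 3 or any single Cbfb+/+ array, with adjusted p up to 0.186. Slc16a1 was called in neither mutant, with changes of -0.07 (adjusted p = 0.653) and -0.12 (adjusted p = 0.543). Both genes did differ between the wild-type groups of the crosses.

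Among the preparatory enzymes, 7 of 8 tested members were called higher with the fusion and 1 lower, and 5 and 1 of 6 without Pfkp and Aldoc. Of all tested genes 30.5% were called higher and 5.63% lower in this comparison. Pfkp, the platelet type of phosphofructokinase, had the largest change of the tested members. It read 8.25, 8.22, 8.79 and 8.77 in Cbfb+/MYH11, against 4.69, 4.85, 4.43 and 4.61 in WT. In Cbfb-/- the values were 5.04, 5.23 and 5.18 and in Cbfb+/+ 4.77, 4.65 and 4.99. The 4 Cbfb+/MYH11 arrays were bright, and the other 10 all lay below the filter level of 6, where RMA values compress differences. The fitted rise was 14.6-fold (3.87, 95% interval 3.55 to 4.18, adjusted p = 1.64e-09), and a second probe set, also called, gave 2.70. The change in Cbfb-/- was 0.35 (adjusted p = 0.11) and was not called, and the effects differed by 3.52, 95% interval 3.03 to 4.00, adjusted p = 4.54e-07. Pfkp was called higher in each array pair, at 3.47 and 4.26.

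The liver and muscle types of phosphofructokinase behaved otherwise. Pfkl read 8.55, 8.45, 9.04 and 9.13 in Cbfb+/MYH11, against 7.27, 7.63, 8.59 and 8.36 in WT. Its values were 9.80, 9.88 and 9.76 in Cbfb-/-, against 8.33, 8.40 and 8.27 in Cbfb+/+. The Cbfb-/- arrays were the highest of all, while the Cbfb+/MYH11 and WT ranges overlapped, WT array 3 reading above Cbfb+/MYH11 arrays 1 and 2. Pfkl rose 1.78-fold with the fusion (adjusted p = 0.0116) and 2.79-fold in Cbfb-/- (adjusted p = 0.00235). The difference of -0.65 had an adjusted p of 0.238, and of 0.0278, which made it a call, with the replicate number as a block. Pfkm rose 1.8-fold with the fusion, at 7.39 to 7.62 in Cbfb+/MYH11 and 6.33 to 6.92 in WT (adjusted p = 9.3e-05). In Cbfb-/- the Pfkm change of 0.46 stayed under 1.5-fold.

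With the fusion the hexokinases moved in opposite directions. Hk1, the housekeeping form and the main one of red cells, read 9.32, 9.41, 9.34 and 9.33 in Cbfb+/MYH11, against 10.00, 10.02, 10.08 and 10.01 in WT. It read 9.14, 9.12 and 9.09 in Cbfb-/-, against 9.64, 9.60 and 9.63 in Cbfb+/+. The groups did not overlap within either cross. Hk1 fell 1.6-fold with the fusion (-0.68, 95% interval -0.81 to -0.55, adjusted p = 2.05e-06), a call that centring the arrays removed at a change of -0.57. In Cbfb-/- its change of -0.51 (adjusted p = 0.000335) was under 1.5-fold. A second Hk1 probe set read -0.54 and -0.50 and was called in neither mutant.

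Hk2, the inducible hexokinase that sits on mitochondria, read 6.84, 6.75, 7.37 and 7.39 in Cbfb+/MYH11, against 5.95, 6.12, 6.36 and 6.51 in WT. The values were 7.10, 7.14 and 7.25 in Cbfb-/-, against 6.56, 6.36 and 6.44 in Cbfb+/+. Every mutant array lay above every littermate array of its cross. Hk2 rose 1.8-fold (adjusted p = 0.000589) and 1.64-fold (adjusted p = 0.00968), and quantile normalization put both rises under 1.5-fold, at 0.57 and 0.53 on the log2 scale.

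Aldolase splits fructose 1,6-bisphosphate. Aldoa, the form of muscle and red cells, rose 1.88-fold with the fusion, at 11.12 to 11.63 in Cbfb+/MYH11 and 10.33 to 10.66 in WT (adjusted p = 5.27e-05). The change was 0.55 in arrays 1 and 2, short of 1.5-fold, and 1.27 in arrays 3 and 4. In Cbfb-/- its difference was 0.33 (adjusted p = 0.0775) and was not called, and the effects differed by 0.58 (adjusted p = 0.0371), just under 1.5-fold. Aldoc, best known from the brain, rose more in Cbfb-/-. It read 6.17, 5.80, 6.72 and 6.53 in Cbfb+/MYH11, against 5.36, 4.95, 5.29 and 5.06 in WT. Its values were 7.87, 7.13 and 7.78 in Cbfb-/-, against 4.97, 5.37 and 5.02 in Cbfb+/+. No littermate array reached 6. Aldoc rose 5.55-fold in Cbfb-/- (2.47, 95% interval 1.95 to 2.99, adjusted p = 4.25e-05) and 2.2-fold with the fusion (1.14, 95% interval 0.69 to 1.59, adjusted p = 0.00051). The difference of the effects was -1.34 (adjusted p = 0.00789).

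Tpi1, triose phosphate isomerase, read 9.59, 9.63, 10.67 and 10.75 in Cbfb+/MYH11, against 8.01, 8.24, 9.20 and 9.20 in WT. It read 10.24, 10.28 and 10.24 in Cbfb-/-, against 8.70, 8.68 and 8.73 in Cbfb+/+. It rose 2.82-fold (adjusted p = 0.00121) and 2.92-fold (adjusted p = 0.00574), and the difference of -0.05 had a 95% interval of -1.08 to 0.98. WT arrays 3 and 4 read 1.07 above WT arrays 1 and 2, so the spread within WT was near the size of the change. On the Cbfb+/MYH11 arrays the same pairs differed by 1.10. Within the array pairs the fusion change of Tpi1 was 1.48 and 1.51, called higher each time. The probe sets used for Tpi1, Aldoa and Tkt have the suffix _x_at, which marks probes that can bind other transcripts, so near-identical copies may share their signal.

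**Figure D2:**
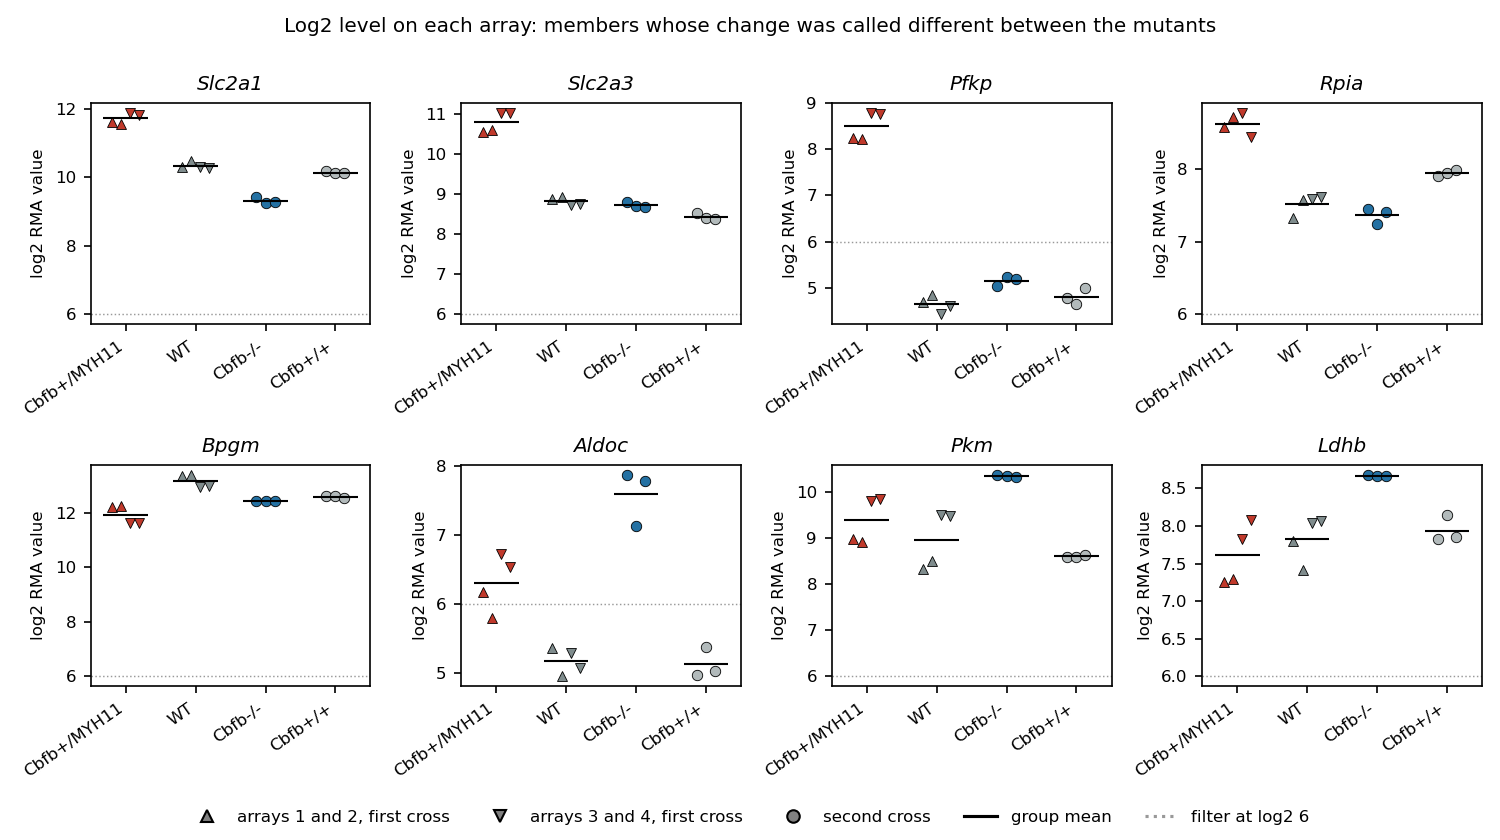
Log2 RMA value on each array for the 8 members whose changes were called different between the mutants, in 4 groups. Upward triangles are arrays 1 and 2 and downward triangles arrays 3 and 4 of the first cross, circles are the second cross, lines are group means and the dotted line is the filter at 6. Slc2a1, Slc2a3, Pfkp and Rpia were highest on all 4 Cbfb+/MYH11 arrays, and Aldoc, Pkm and Ldhb on the 3 Cbfb-/- arrays.

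At the payoff steps, Pgk1 and Pgam1 rose in both mutants. Pgk1, phosphoglycerate kinase, which makes the first ATP of the payoff steps, read 9.82, 9.83, 10.80 and 10.74 in Cbfb+/MYH11, against 8.22, 8.41, 9.37 and 9.38 in WT. The values were 10.41, 10.45 and 10.40 in Cbfb-/-, against 8.86, 8.85 and 8.81 in Cbfb+/+. The mutant arrays lay above the littermate arrays of their cross throughout, but WT arrays 3 and 4 read 1.06 above WT arrays 1 and 2. Pgk1 rose 2.73-fold (1.45, 95% interval 0.83 to 2.07, adjusted p = 0.000901) and 2.99-fold (1.58, 95% interval 0.86 to 2.30, adjusted p = 0.00348), and within the array pairs the fusion change was 1.51 and 1.39. The difference of the effects was -0.13, with a 95% interval of -1.08 to 0.82.

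Pgam1, phosphoglycerate mutase, read 9.07, 9.16, 10.14 and 10.17 in Cbfb+/MYH11, against 7.36, 7.81, 9.24 and 9.25 in WT. It read 9.94, 9.91 and 9.86 in Cbfb-/-, against 8.14, 8.06 and 8.17 in Cbfb+/+. WT arrays 3 and 4 lay above Cbfb+/MYH11 arrays 1 and 2, so the first cross overlapped while the second did not. Within the array pairs the fusion change was 1.53 and 0.91, called higher each time. Pgam1 rose 2.33-fold (adjusted p = 0.0176) and 3.44-fold (adjusted p = 0.00943). The fusion call over all arrays was lost on leaving out Cbfb+/MYH11 array 3 or 4 or WT array 1 or 2. It was also lost in a fit of the first cross alone. Gapdh, glyceraldehyde phosphate dehydrogenase, was called in neither mutant, at changes of -0.04 (adjusted p = 0.642) and 0.23 (adjusted p = 0.0605), and its 3 probe sets differed in sign with the fusion at -0.04 to 0.02.

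Bpgm makes the 2,3-bisphosphoglycerate of red cells. It read 12.21, 12.23, 11.61 and 11.62 in Cbfb+/MYH11, against 13.33, 13.38, 12.95 and 12.96 in WT. The values were 12.41, 12.43 and 12.41 in Cbfb-/-, against 12.59, 12.59 and 12.53 in Cbfb+/+. Every Cbfb+/MYH11 array lay below every other array. Bpgm fell 2.35-fold with the fusion (-1.23, 95% interval -1.57 to -0.90, adjusted p = 3.03e-05), by 1.13 in arrays 1 and 2 and by 1.34 in arrays 3 and 4 on the log2 scale. In Cbfb-/- its difference was -0.15 (adjusted p = 0.489), not called, and the effects differed by -1.08 (adjusted p = 0.00477). All 3 probe sets were called lower with the fusion, at -1.29 to -1.20.

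Pkm, pyruvate kinase outside liver and mature red cells, read 8.97, 8.90, 9.80 and 9.84 in Cbfb+/MYH11, against 8.32, 8.50, 9.50 and 9.48 in WT. It read 10.36, 10.34 and 10.32 in Cbfb-/-, against 8.58, 8.59 and 8.63 in Cbfb+/+. The Cbfb-/- arrays were highest, and the groups of the first cross overlapped. Pkm rose 3.34-fold in Cbfb-/- (1.74, 95% interval 1.03 to 2.45, adjusted p = 0.00194), while the fusion change of 0.43 (adjusted p = 0.202) was not called. Within the array pairs the fusion change was 0.52 and 0.33, under 1.5-fold. The difference of -1.31 (adjusted p = 0.0408) was called, but not after centring the arrays. That call was lost on leaving out any array of the second cross, Cbfb+/MYH11 array 1 or 2, or WT array 3 or 4. With only arrays 1 and 2 or only arrays 3 and 4 of the first cross, the difference was -1.22 and -1.41, called lower each time.

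With the fusion lactate dehydrogenase also split by subunit, while in Cbfb-/- both subunits were called higher. Ldha, the subunit that favours lactate, read 10.48, 10.49, 11.30 and 11.31 in Cbfb+/MYH11, against 8.64, 8.77, 9.85 and 9.77 in WT. Its values were 10.88, 10.85 and 10.86 in Cbfb-/-, against 9.36, 9.36 and 9.35 in Cbfb+/+. Mutant and littermate arrays did not overlap in either cross. Ldha rose 3.11-fold (1.64, 95% interval 1.03 to 2.24, adjusted p = 0.000303) and 2.84-fold (95% interval of the log2 change 0.81 to 2.20, adjusted p = 0.00382), with 1.78 and 1.49 within the array pairs. The difference of 0.13 had a 95% interval of -0.79 to 1.05.

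Ldhb, the subunit of heart and of red cells in many species, read 7.26, 7.29, 7.83 and 8.08 in Cbfb+/MYH11, against 7.80, 7.42, 8.04 and 8.07 in WT. It read 8.68, 8.67 and 8.66 in Cbfb-/-, against 7.82, 8.14 and 7.85 in Cbfb+/+. It rose 1.66-fold in Cbfb-/- (adjusted p = 0.0173), a call lost without Cbfb+/+ array 1 or 3. The fusion change was -0.22 (adjusted p = 0.329). The difference, -0.95 (adjusted p = 0.0274), was lost without any single Cbfb-/- array, without Cbfb+/+ array 1 or 3 or without Cbfb+/MYH11 array 2. Its 4 probe sets gave fusion changes from -0.25 to 0.83, none called, and changes in Cbfb-/- from 0.73 to 2.74, all called.

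Among pyruvate dehydrogenase and its kinases, Pdk3 and Pdhb were called with the fusion and Pdha1 with loss of Cbfb. Of all genes 30.5% and 19.5% were called higher in these comparisons. Pdk3, a kinase that switches the complex off, rose 1.91-fold with the fusion, at 7.39 to 8.04 in Cbfb+/MYH11 and 6.14 to 7.25 in WT (adjusted p = 0.00406). In Cbfb-/- its difference was 0.56 (adjusted p = 0.106), not called. Pdk1, another of these kinases, was called in neither mutant, at 0.34 (adjusted p = 0.0608) with the fusion and 0.38 (adjusted p = 0.0825) with loss of Cbfb, and a second, dimmer probe set of it was called higher with the fusion, at 1.75. Pdhb, the beta subunit of the first enzyme of the complex, rose 1.65-fold with the fusion (adjusted p = 0.00049), by 0.90 in arrays 1 and 2 and by 0.55, under the fold limit, in arrays 3 and 4. Pdha1, the alpha subunit, rose 1.55-fold in Cbfb-/-, at 8.03 to 8.14 in Cbfb-/- and 7.32 to 7.60 in Cbfb+/+ (adjusted p = 0.00349). Without Cbfb+/+ array 2 that call was lost. The fusion change of Pdha1 was 0.35 (adjusted p = 0.0195), and -0.06 after quantile normalization. Dlat, the acetyltransferase of the complex, stayed below 1.5-fold in both mutants, at 0.49 (adjusted p = 0.000452) with the fusion and 0.54 (adjusted p = 0.00195) with loss of Cbfb. After centring the arrays it was called higher in both, at 0.60 and 0.59. A second Dlat probe set of similar brightness read 0.58 with the fusion, not called, and 0.64 with loss of Cbfb, called.

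In the pentose phosphate pathway, Rpia and Tkt rose with the fusion and Pgd fell. Rpia, which makes ribose 5-phosphate, read 8.58, 8.72, 8.78 and 8.44 in Cbfb+/MYH11, against 7.32, 7.57, 7.59 and 7.62 in WT. The values were 7.45, 7.24 and 7.41 in Cbfb-/-, against 7.91, 7.95 and 7.99 in Cbfb+/+. The Cbfb+/MYH11 arrays were the highest of the 14, and the Cbfb-/- arrays lay below their littermates without overlap. Rpia rose 2.15-fold with the fusion (1.10, 95% interval 0.89 to 1.31, adjusted p = 1.69e-06). Its change in Cbfb-/- was -0.58 (adjusted p = 0.0022), just short of 1.5-fold, and it was called lower after quantile normalization and on leaving out Cbfb-/- array 1 or 3 or Cbfb+/+ array 1. The effects differed by 1.68, 95% interval 1.36 to 2.00, adjusted p = 5.02e-06.

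Tkt, transketolase, read 10.99, 11.02, 11.38 and 11.39 in Cbfb+/MYH11, against 9.12, 9.40, 10.01 and 9.94 in WT. It read 10.96, 10.94 and 10.93 in Cbfb-/-, against 10.05, 9.97 and 9.91 in Cbfb+/+. Mutant arrays lay above littermate arrays in both crosses. Tkt rose 2.98-fold (1.57, 95% interval 1.19 to 1.96, adjusted p = 1.27e-05) and 1.96-fold (0.97, 95% interval 0.53 to 1.41, adjusted p = 0.00343). The difference of 0.61 (adjusted p = 0.117) became a call with the replicate number as a block, at an adjusted p of 0.0121, and without WT array 3.

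Pgd, the second enzyme of the pathway to make NADPH, read 8.72, 8.62, 8.75 and 8.80 in Cbfb+/MYH11, against 9.36, 9.48, 9.24 and 9.20 in WT. It fell 1.51-fold with the fusion (-0.59, 95% interval -0.76 to -0.43, adjusted p = 3.69e-05), near the fold limit, and the call was lost on centring the arrays and on leaving out Cbfb+/MYH11 array 2 or WT array 1 or 2. The other 3 probe sets of Pgd read -0.32 to -0.18 and were not called. In Cbfb-/- the Pgd difference of -0.35 (adjusted p = 0.00922) was under 1.5-fold. Pgls, which opens the ring of the first product, rose 1.69-fold with the fusion, at 7.98 to 8.60 in Cbfb+/MYH11 and 6.99 to 8.00 in WT (adjusted p = 0.00946), a call lost without WT array 1. Its change in Cbfb-/- was 0.62 (adjusted p = 0.0607), and it was called there with the replicate block (adjusted p = 0.00171) and on leaving out WT array 1, 3 or 4. Taldo1, transaldolase, stayed under 1.5-fold, at -0.29 (adjusted p = 0.00247) with the fusion and -0.24 (adjusted p = 0.0234) with loss of Cbfb.

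**Figure D3:**
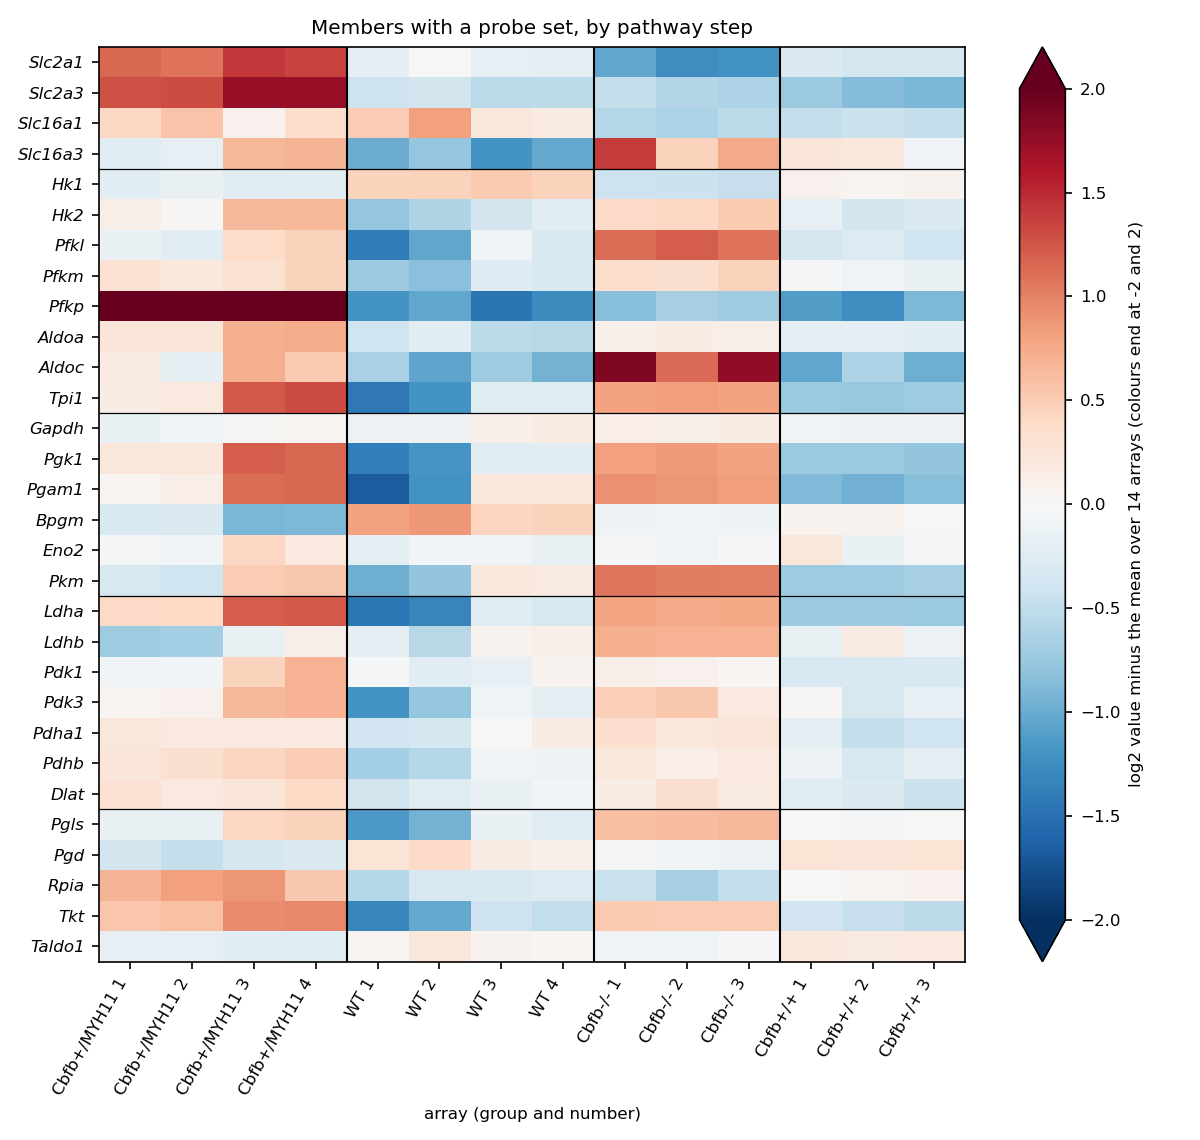
Log2 value of each of the 30 members on each of the 14 arrays, minus its mean over all arrays, with members by pathway step down the page and arrays by group across. Red is above and blue below the mean, and colours end at -2 and 2. Slc2a1, Slc2a3 and Pfkp are red on Cbfb+/MYH11 arrays only, while Tpi1, Pgk1, Pgam1 and Ldha are red on both mutants and bluest on WT arrays 1 and 2.

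Set side by side, 9 members were called higher in both mutants, where 12.4% of all tested genes were called the same way in both. Without Slc16a3 and Aldoc, and with Pfkp also left out, they were 7 of 26. The 9 were Slc16a3, Hk2, Pfkl, Aldoc, Tpi1, Pgk1, Pgam1, Ldha and Tkt. Slc2a1 was called in opposite directions, and 11 members were called with the fusion alone, 3 (Pkm, Ldhb and Pdha1) with loss of Cbfb alone and 5 in neither. More genes of any kind were called with the fusion, 2671 of all tested genes against 1935 with loss of Cbfb, in either direction. Of these, 914 were called the same way in both mutants. The share of all genes called in a single mutant was not counted, so the 11 and 3 have no background beside them. In the test of the difference itself, 4 members were called higher with the fusion, against 14.9% of all genes, and 4 lower, against 6.07%, or 3 and 3 of 26 without Slc16a3, Pfkp and Aldoc. The higher ones were Slc2a1, Slc2a3, Pfkp and Rpia, and the lower ones Aldoc, Bpgm, Pkm and Ldhb. After centring the arrays the split was 5 to 3, beside 16.4% and 4.8% of all genes, Aldoa being called and Pkm not.

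The wild-type groups of the crosses were compared as a check on the baselines. Of the 29 members 1, Slc16a3, was called higher in Cbfb+/+ than in WT, against 5.48% of all genes, and 1, Slc16a1, was called lower, against 5.76%. Slc16a3 read 5.83, 5.80 and 5.53 in Cbfb+/+ against 4.59, 4.81, 4.39 and 4.56 in WT, a log2 difference of 1.13 (adjusted p = 0.0063). Slc16a1 read 6.90, 6.94 and 6.90 in Cbfb+/+ against 7.88, 8.19, 7.61 and 7.54 in WT, a difference of -0.89 (adjusted p = 0.000853). Pgls was also called, at 0.60, with the replicate block (adjusted p = 0.00217) and with quantile normalization, which made the split 2 to 1, beside 7.17% and 6.01% of all genes. Under 1.5-fold, but with an adjusted p under 0.05, were Bpgm at -0.58, Hk1 at -0.40, Slc2a3 at -0.38, Pfkm at 0.45 and Rpia at 0.42. For Bpgm the adjusted p was 0.022 and the groups did not overlap. It was called lower against WT arrays 1 and 2 and on leaving out WT array 3 or 4. Against WT arrays 1 and 2 alone 7 members were called higher in Cbfb+/+ and 2 lower, beside 14.2% and 5.91% of all genes. Against WT arrays 3 and 4 alone 1 was called higher and 3 lower, beside 6.95% and 19.7%.

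Several members that rose in the mutants also differed between the array pairs of WT. With no test, 9 members read at least 1.5-fold higher on WT arrays 3 and 4 than on WT arrays 1 and 2, as did 24.4% of all genes, and 0 members read that much lower. The log2 differences were 1.66 for Pgam1, 1.11 for Ldha, 1.08 for Pkm, 1.07 for Tpi1, 1.06 for Pgk1, 1.03 for Pfkl, 0.88 for Pgls, 0.85 for Pdk3 and 0.72 for Tkt. On the Cbfb+/MYH11 arrays the same pairs differed by 1.04 for Pgam1, 0.82 for Ldha, 0.89 for Pkm, 1.10 for Tpi1 and 0.95 for Pgk1. Slc2a1, Slc2a3, Pfkp and Rpia differed between the WT pairs by -0.10, -0.15, -0.25 and 0.16. On the Cbfb+/MYH11 arrays they differed by 0.26, 0.45, 0.55 and -0.04, and their fusion changes were 1.38, 1.98, 3.87 and 1.10.

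**Figure D4:**
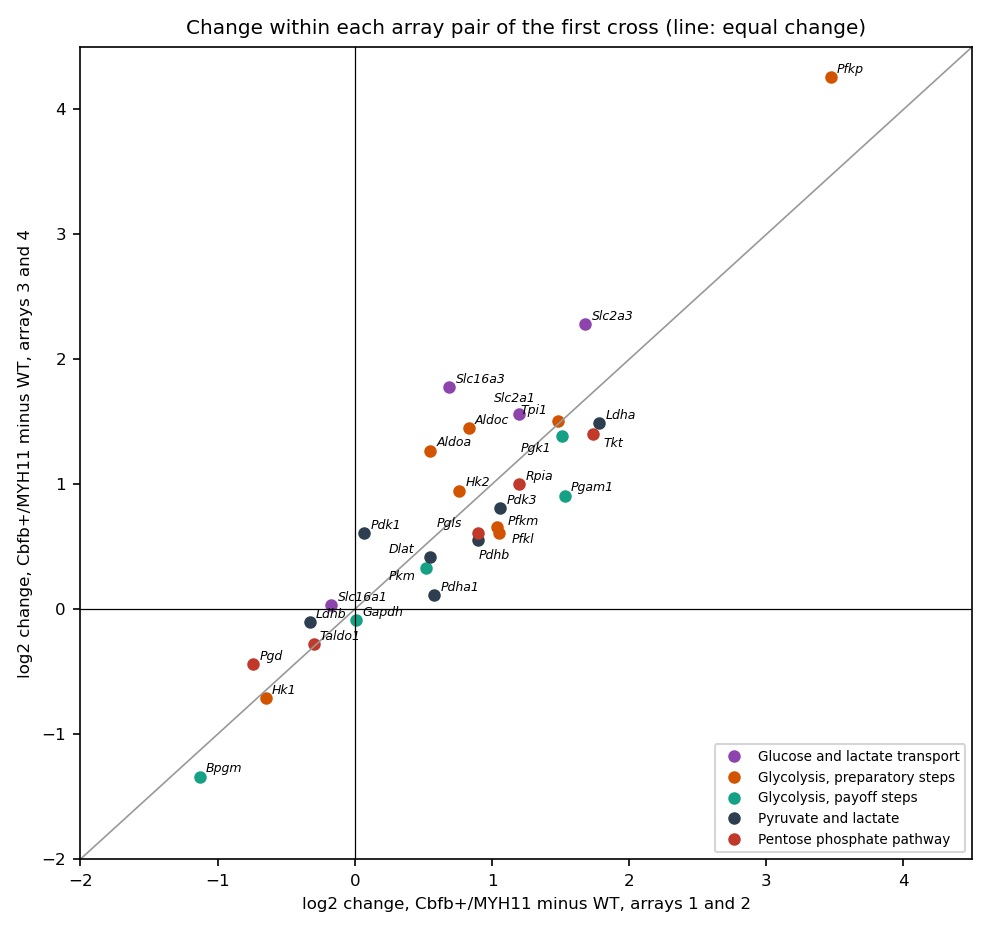
Log2 change of each tested member between Cbfb+/MYH11 and WT within arrays 1 and 2 (x axis) and within arrays 3 and 4 (y axis), coloured by pathway step, with a line at equal change. Pfkp lies at 3.47 and 4.26 and Bpgm at -1.13 and -1.34, and members above the line changed more in arrays 3 and 4.

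Transcripts of other cell types also differed between the arrays. The 10 neural markers, of which 9 were tested, had a mean log2 value of 5.55 to 7.24 in Cbfb+/MYH11, 4.31 to 5.99 in WT, 7.62 to 7.73 in Cbfb-/- and 4.57 to 4.72 in Cbfb+/+. By array they read 5.68, 5.55, 7.23 and 7.24 in Cbfb+/MYH11, against 4.31, 4.40, 5.99 and 5.94 in WT, so the higher pair was 3 and 4 in both, as for Pgam1, Ldha, Pkm, Tpi1 and Pgk1. Of the 9 tested, 9 were called higher in Cbfb-/-, where 19.5% of all genes were, and 3 with the fusion, near the 30.5% of all genes. Without the 4 that reached 6 on mutant arrays only, the counts were 5 and 1 of 5. Nnat averaged 7.73 ± 1.01 in Cbfb+/MYH11 and 6.47 ± 2.37 in WT (SD, n = 4 each), and 10.00 ± 0.01 in Cbfb-/- and 6.59 ± 0.09 in Cbfb+/+ (SD, n = 3 each). Nes averaged 7.11 ± 0.09 in Cbfb+/MYH11 and 7.34 ± 0.13 in WT (SD, n = 4 each), so it did not rise with the fusion. Its arrays ranged from 7.05 to 7.25 and from 7.18 to 7.48 there, a narrower spread than that of the list mean. In the second cross Nes averaged 8.08 ± 0.06 in Cbfb-/- and 6.97 ± 0.18 in Cbfb+/+ (SD, n = 3 each). Pax6 stayed below 6 on every array. The part of these transcripts in the changes of Aldoc, Pkm, Ldhb and the other members was not tested.

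Platelet markers had a lower list mean in both mutants, of 5.82 to 5.94 in Cbfb+/MYH11 against 6.83 to 8.36 in WT, and 6.06 to 6.16 in Cbfb-/- against 7.94 to 8.01 in Cbfb+/+. Of 9 tested, 6 were called lower with the fusion and 9 with loss of Cbfb, where 5.63% and 6.65% of all genes were. Without the 2 that reached 6 on littermate arrays only, the counts were 4 and 7 of 7, and Gp6 stayed below 6 throughout. Pf4 read -3.44 and -1.45, and Tubb1, the brightest of them, 0.46 with the fusion, not called, and -2.62 with loss of Cbfb. Of 8 tested macrophage markers, 7 and 8 were called lower, beside the same 5.63% and 6.65% of all genes. But 6 of them reached 6 on littermate arrays only, so that they could be tested only by being high there. Without these the counts were 1 and 2 of 2. Ctss read -2.60 and -2.30, and Csf1r 0.23 with the fusion, not called, and -2.39 with loss of Cbfb. Their list means were 4.83 to 4.97 in Cbfb+/MYH11 and 5.76 to 7.70 in WT, and 5.00 to 5.21 in Cbfb-/- and 7.17 to 7.24 in Cbfb+/+, with Cd68 below 6 on every array.

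Basophil and mast cell markers had list means of 6.18 to 6.52 in Cbfb+/MYH11 against 4.10 to 4.39 in WT, and of 3.74 to 3.86 in Cbfb-/- against 4.29 to 4.34 in Cbfb+/+. The 5 that were tested reached 6 on Cbfb+/MYH11 arrays only, so they could be tested only by being high there, and their calls are no count of support. Hdc rose by 3.08 and Slc18a2 by 1.47 with the fusion, and Mcpt8, Kit and Fcer1a read below 6 on every array. The part of these cells in the rise of Slc2a1, Slc2a3, Pfkp and Rpia was not tested. In bulk samples, more cells of a type and more RNA per cell cannot be told apart.

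Liver or visceral endoderm markers had list means of 4.85 to 5.68 in Cbfb+/MYH11 and 5.13 to 7.35 in WT. The means were 7.27 to 7.53 in Cbfb-/- and 6.16 to 6.19 in Cbfb+/+. Of 7 tested, 4 were called lower with the fusion, where 5.63% of all genes were, and 5 higher in Cbfb-/-, where 19.5% were. The part of platelet, macrophage and liver transcripts in the values of the members was not tested. Afp was not called, at -2.10 and 1.13, Ttr was called in Cbfb-/- at 2.35, and Apob and Fgb were below 6 throughout. Erythroid markers gave the label of blood its check, with list means of 12.36 to 12.62 in Cbfb+/MYH11, 12.10 to 12.20 in WT, 12.13 to 12.14 in Cbfb-/- and 12.31 to 12.32 in Cbfb+/+. With the fusion 4 of 9 were called higher, where 30.5% of all genes were, and Hbb-y read -0.19 (adjusted p = 0.017), under 1.5-fold. Hbb-y and Hba-x read between 14.19 and 14.55 on every array. As a sign of RNA quality, the 3′ minus 5′ log2 value of the Gapdh control probe sets was 0.00 to 0.09 in Cbfb+/MYH11, 0.04 to 0.18 in WT, -0.07 to -0.01 in Cbfb-/- and 0.06 to 0.07 in Cbfb+/+.

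**Figure D5:**
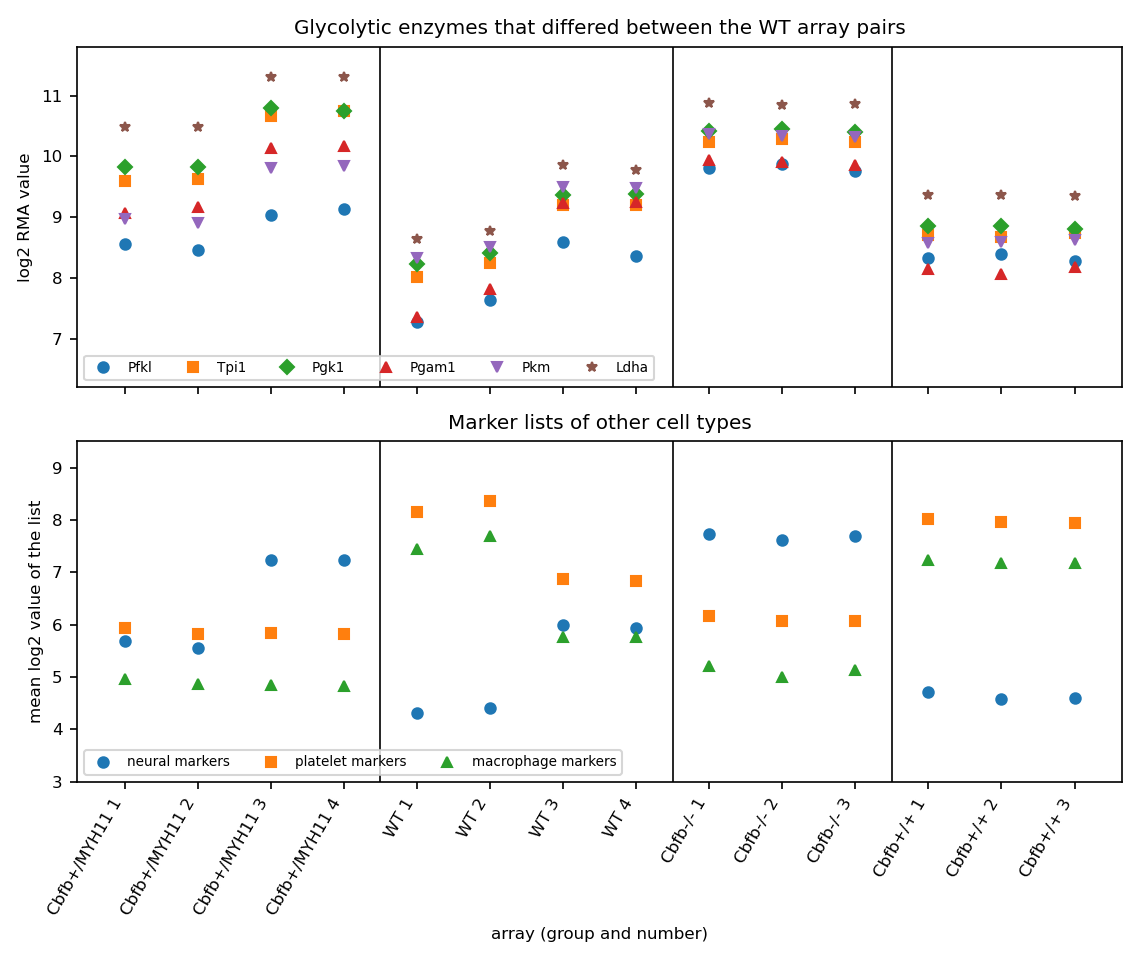
Top, log2 RMA value of 6 glycolytic enzymes on each array. Bottom, mean log2 value of the neural, platelet and macrophage marker lists on the same arrays, with vertical lines between the groups. The neural list and the enzymes are both higher on arrays 3 and 4 than on arrays 1 and 2 of Cbfb+/MYH11 and of WT, and the platelet and macrophage lists are higher on WT arrays 1 and 2.

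Other genes of the same pathways came from a separate list of 38, of which 34 had a probe set and 13 were tested. With the fusion 4 were called higher (Pklr, Dld, Pfkfb4 and Rpe) and 1 lower (H6pd), and in Cbfb-/- 1, Eno3, was called higher. Over all genes 30.5% were called higher and 5.63% lower with the fusion, and 19.5% higher in Cbfb-/-, and the counts among these 13 were near or below those shares. Pfkfb4 reached 6 on Cbfb+/MYH11 arrays only and H6pd on littermate arrays only. Pfkfb4, which makes the fructose 2,6-bisphosphate that activates phosphofructokinase, read 6.76, 7.35, 6.60 and 6.58 in Cbfb+/MYH11, against 4.98, 5.14, 4.93 and 4.90 in WT. It read 5.17, 4.65 and 5.01 in Cbfb-/-, against 5.17, 5.11 and 5.06 in Cbfb+/+. It rose 3.57-fold (1.84, 95% interval 1.49 to 2.18, adjusted p = 1.56e-06), and the effects differed by 2.01 (adjusted p = 6.82e-05).

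Rpe, the epimerase that works beside Rpia, read 7.48, 7.59, 7.60 and 7.68 in Cbfb+/MYH11, against 5.99, 6.43, 6.56 and 6.39 in WT. The values were 7.08, 6.84 and 6.89 in Cbfb-/-, against 6.74, 6.30 and 6.55 in Cbfb+/+. It rose 2.37-fold with the fusion (adjusted p = 6.35e-06), and the effects differed by 0.84 (adjusted p = 0.00704). Dld, a subunit of pyruvate dehydrogenase, rose 2.16-fold with the fusion (adjusted p = 0.00424). Pklr, the pyruvate kinase of liver and red cells, rose 1.51-fold (adjusted p = 0.0068), a call lost with quantile normalization, in arrays 3 and 4, and without Cbfb+/MYH11 array 1 or 2 or WT array 3 or 4. It was also called higher in Cbfb+/+ than in WT, at 0.74 (adjusted p = 0.0084). H6pd, which makes NADPH inside the endoplasmic reticulum, fell 1.66-fold (adjusted p = 0.000695), a call lost in arrays 3 and 4. Eno3, the muscle enolase, rose 2.56-fold in Cbfb-/- (adjusted p = 0.0131). Besides Pfkfb4 and Rpe, Pdk2 was called in the difference at 1.15 (adjusted p = 7.34e-05), and it is named here after its values were seen. It was called in neither mutant, at 0.58 and -0.57, and it was higher in Cbfb+/+ than in WT by 1.04 (adjusted p = 3.63e-05).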

How the data were processed

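Blood RNA was hybridized to 14 Affymetrix mouse arrays, per the labels. Per the submitters' processing notes, Affymetrix Expression Console and RMA gave the log2 values that were deposited, and the versions are not given in the sources used here. RMA background correction compresses differences between dim probe sets. The log2 values of 45101 probe sets were used as deposited. By the platform table, 34958 carried 1 symbol, 932 several, 9160 none and 64 were array controls.

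Groups were fitted with limma 3.58.1 in R 4.3.3 (lmFit, contrasts.fit, eBayes), all 14 arrays in 1 model of 4 groups, no covariate, 10 residual and 2.81 prior degrees of freedom, after testing the script on simulated data. P-values were adjusted by Benjamini and Hochberg over the 7393 genes. The members and lists were chosen with earlier results of these data known. All members with a probe set are named, with the other pathway genes called in either mutant and the 2 brightest genes of each marker list. Same-numbered arrays of the first cross, numbered in the labels, deviated together from their group means (r across genes 0.521, 0.407, 0.499 and 0.499), as did different numbers of a pair (0.417 for Cbfb+/MYH11 array 2 with WT array 1). In the second cross r was 0.034, 0.011 and 0.017. Precision is limited by how many arrays there are. The alternatives were another normalization or filter, the mean of a gene's probe sets, the replicate block, array pairs, putative pools, only the groups compared, no fold limit and leaving out 1 array.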

Additional observations from a re-analysis of the deposited data

Results flagged for a closer look

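The changes of 9 members differed between the mutants in limma's test of the difference, Cbfb+/MYH11 effect minus Cbfb-/- effect on the log2 scale. This count took an adjusted p under 0.05 with no fold limit. The share of all genes under that rule was not counted, so the 9 have no background beside them. With the fold limit 4 members were called higher and 4 lower, against 14.9% and 6.07% of all genes. The difference was 3.52 for Pfkp, 2.21 for Slc2a1, 1.69 for Slc2a3 and 1.68 for Rpia, each higher with the fusion on 4 of 4 arrays than on any WT array. It was -1.34 for Aldoc, -1.31 for Pkm, -1.08 for Bpgm and -0.95 for Ldhb. For Aldoa it was 0.58, with an adjusted p of 0.0371 and a size just under 1.5-fold. The calls of Pkm and Ldhb were lost without some single arrays, as given with each gene.

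In WT, 1 array lay far above the other 3 for Slc2a1, at 10.47 on array 2, and for Taldo1, at 12.20, also on array 2. Among 60 combinations of a member and a group of 4 arrays these were the 2 that passed Dixon's limit, which chance passes in about 1 of 20.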

How the results depend on the processing

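Beside the values given with each gene, leaving out 1 array at a time kept direction and side of the threshold for 911 of 952 values of single members, weakened 32, strengthened 6 and reversed 3, and the other settings kept 581 of 667, weakened 63, strengthened 17 and reversed 6. Reversed values were small. With the fusion, Slc16a1 went to 0.04 on centring the arrays and 0.03 in arrays 3 and 4, and ranged from -0.16 to 0.06 on leaving out 1 array. Gapdh went to 0.07 on centring and 0.01 in arrays 1 and 2, and ranged from -0.09 to 0.00. Ldhb went to 0.04 with the mean of its probe sets, and Pdha1 to -0.06 with quantile normalization.

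Members called higher and lower with the fusion numbered 1 and 0 with arrays averaged to putative pools, and those called lower numbered 1 on centring. On leaving out 1 array they ranged from 16 to 18 higher and from 2 to 3 lower. In Cbfb-/- the numbers were 0 and 0 with pools, the members called lower were 3 with quantile normalization and 5 without the fold limit, and without 1 array 10 to 13 were higher and 1 to 2 lower. The 2 lower ones, without Cbfb-/- array 1 or 3 or Cbfb+/+ array 1, were Slc2a1 and Rpia. The difference gave 0 and 0 with pools, and 4 to 5 higher and 2 to 4 lower without 1 array, 2 without Cbfb+/MYH11 array 2, without Cbfb-/- array 1, 2 or 3 or without Cbfb+/+ array 1 or 3. Cbfb+/+ against WT gave 2 higher with quantile normalization or the replicate block, 0 with the filter at 7, 7 against WT arrays 1 and 2, 0 with pools and 3 without the fold limit. Its lower calls were 0 with the mean of probe sets, 2 against WT arrays 1 and 2, 3 against WT arrays 3 and 4, 0 with pools and 4 without the fold limit. Both ranged from 1 to 2 without 1 array, the 2 arising without WT array 3 or 4.

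Other pathway genes called with the fusion, 5 in all, were 3 with the filter at 7 or the mean of probe sets, 0 with pools and 9 without the fold limit. In Cbfb-/- 1 became 2 with quantile normalization, the replicate block or only the groups compared, 0 with the filter at 7 or with pools, and 3 without the fold limit. It ranged from 1 to 2 without 1 array, 2 without WT array 1 or Cbfb-/- array 1. The replicate block changed no call of a member beyond Pgls, Pfkl and Tkt, given above. Where limma called 0 with pools, the members with an unadjusted p under 0.05 were 3 lower with the fusion, 1 higher and 1 lower in Cbfb-/-, 4 higher and 1 lower in the difference, and 1 higher and 1 lower between the wild-type groups, and the other pathway genes were 4 with the fusion and 0 in Cbfb-/-. The other counts of 0, in the filter at 7 and the mean of probe sets, each had 3 such genes. Putative pools leave 2 values per genotype in the first cross and 1 in the second, whose lone values are assumed to vary like the first cross. Slc16a3 and Eno3 read at most 6.99 and 6.68 on any array, so they were not tested with the filter at 7. Slc16a1 was not tested with the mean of its probe sets, of which the second averaged 3.08. The counts of 0 there are thus genes that left the test. The cause of the remaining shifts was not tested. No detection calls were used, so members below 6 have only a rough level.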
